A study of Mus musculus with 9 samples.

Results

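Tyr, Tyrp1, Dct, Pmel, Mlana, Gpnmb, Oca2, Slc45a2, Slc24a5 and Gpr143 encode the pigment enzymes and the structural and transport proteins of the melanosome, and were taken by their symbols. They were 10 of 22972 gene names in 9 RNA sequencing libraries, and all 10 were among the 10109 genes that averaged 1 FPKM or more and entered the tests. FPKM is a fragment count divided by the length of the gene and by the size of the library. The libraries came from B16, an established mouse melanoma cell line described as wild type, which was grown on PDMS film, a flexible silicone sheet, and harvested on day 3. The CTL group (3 libraries) had no straining and no inhibitor. The MS group (3 libraries) was strained cyclically for 72 h by stretching the film. The Blebb group (3 libraries) received 100 ng/mL blebbistatin, an inhibitor of non-muscle myosin II, for 72 h. The sample labels of Blebb name the inhibitor and no straining, whereas the study's methods add the inhibitor before straining, so whether Blebb cells were also strained is not settled by the labels. One cell line was used, and the replicates are labelled as parallel experiments. The culture device had several units for such experiments, but the labels do not say whether each library came from a unit of its own, so errors and p-values measure only the spread between these libraries, which may be technical. The comparisons ask whether cyclic straining and treatment with the myosin inhibitor are accompanied by other levels of pigment gene expression.

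Melanin is made in the melanosome, a lysosome-related organelle of melanocytes. Tyrosinase, the product of Tyr, oxidizes tyrosine in the first and rate-limiting step, and the related enzymes encoded by Dct and Tyrp1 act on later intermediates of eumelanin synthesis. The pigment is laid down on fibrils of the PMEL protein, and anion, proton and cation transport across the melanosome membrane keeps the lumen favourable for tyrosinase. Many of these genes are known targets of MITF, the melanocyte lineage factor, which binds the M-box, an E-box extended by a T on its 5′ side.

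Promoter sequences were found in RefSeq (build GRCm38.p6) for 6 of the 10 genes, and no sequence was taken for Pmel, Mlana, Slc45a2 and Gpr143. The windows hold 250 bases before and 50 bases from the annotated start. The M-box heptamer TCATGTG, searched on both strands, was present in 4 of the 6 windows, against 3.77% of 32851 mouse windows of the same length. It lay at -22 to -16 from the start in Tyr, at -47 to -41 in Tyrp1, at -151 to -145 in Dct and, on the opposite strand, at -232 to -226 in Dct and at -13 to -7 in Slc24a5. The hexamer CATGTG, which is contained in the heptamer, was present in 5 of the 6 windows and in 14.2% of all windows. The additional gene was Oca2, on the opposite strand at -186 to -181. The other E-box CACGTG was in 0 of the 6 windows and in 7.15% of all windows. A match is a description of the letters and no evidence of binding. The bases before the start are shown 5′ to 3′ for the genes with the heptamer, which is in capitals (as CACATGA where it is read on the opposite strand), and for Oca2, whose level varied most among the 10 genes. They cover chr7:87493513-87493762 (minus strand) for Tyr, chr14:118052247-118052496 (minus strand) for Dct, chr2:125067877-125068123 (plus strand) for Slc24a5 and chr7:56239509-56239758 (plus strand) for Oca2. The sequence of Slc24a5 runs from -250 to -4, and the bases between its end and the start are not shown. For Tyrp1 only the heptamer with its flanks is shown, at chr4:80834156-80834182 (plus strand), since it lies inside the gene as GENCODE annotates it.
Tyr: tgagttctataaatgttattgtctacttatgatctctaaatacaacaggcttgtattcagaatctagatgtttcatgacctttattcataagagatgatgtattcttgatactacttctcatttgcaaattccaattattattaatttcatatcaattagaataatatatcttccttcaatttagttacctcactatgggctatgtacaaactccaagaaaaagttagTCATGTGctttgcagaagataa
Tyrp1: ggggagggagTCATGTGctgcctagta
Dct: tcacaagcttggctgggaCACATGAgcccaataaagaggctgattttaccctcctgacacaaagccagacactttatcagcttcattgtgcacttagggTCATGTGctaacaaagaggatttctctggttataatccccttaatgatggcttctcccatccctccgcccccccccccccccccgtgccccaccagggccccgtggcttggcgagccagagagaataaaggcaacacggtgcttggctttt
Slc24a5: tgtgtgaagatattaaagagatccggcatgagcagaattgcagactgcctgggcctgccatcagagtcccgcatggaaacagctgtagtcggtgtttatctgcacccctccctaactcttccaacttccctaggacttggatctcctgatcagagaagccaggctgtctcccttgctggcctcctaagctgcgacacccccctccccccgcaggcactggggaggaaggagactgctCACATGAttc
Oca2: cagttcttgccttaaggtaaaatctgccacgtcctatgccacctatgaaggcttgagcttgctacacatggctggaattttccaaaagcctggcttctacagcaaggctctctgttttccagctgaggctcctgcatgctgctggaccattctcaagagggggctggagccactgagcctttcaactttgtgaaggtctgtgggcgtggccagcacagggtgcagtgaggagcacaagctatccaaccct

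**Figure D1:**
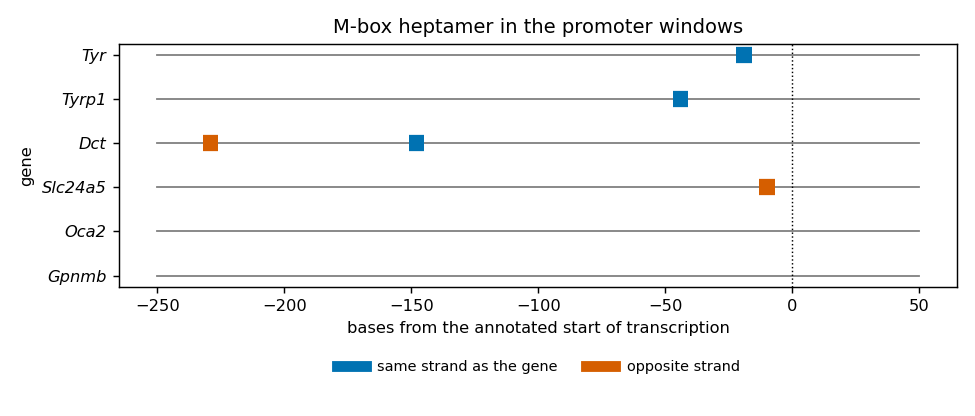
Position of the M-box heptamer in the 6 promoter windows, in bases from the annotated start of transcription (horizontal axis), one line per gene, with the strand in colour. Dct holds 2 copies, Tyr, Tyrp1 and Slc24a5 hold 1 each, and Oca2 and Gpnmb hold 0.

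The summed FPKM of a library was between 439939 and 484093, and the number of fragments sequenced is unknown. The libraries did not order by treatment. On the first principal component of the 10099 other genes tested (70.4% of their variance), CTL replicate 1 was at -42.1, Blebb replicate 2 at -43.8, MS replicate 3 at -9.94 and Blebb replicate 1 at -7.33, and the remaining 5 ran from 6.01 to 35.8. With the trend of each library on GC content removed, CTL replicate 1, Blebb replicate 2 and MS replicate 3 were at -34.9, -34.1 and -17.2, and the others between 2.89 and 21.9. The summed FPKM of 10 genes of the integrated stress response, such as Atf4 and Trib3, was 1569 in CTL replicate 1, 1582 in Blebb replicate 2 and 1264 in MS replicate 3, against 739 to 1062 in the other 6. By the GC-corrected component and the stress gene sum, these 3 libraries, 1 in each group, stand apart. On the component of the deposited values MS replicate 3 lay next to Blebb replicate 1. The comparisons are also given without the 3 libraries. Of the melanocyte lineage markers, Sox10 was at 209.8 to 313 FPKM and Mitf at 8.51 to 36.2 FPKM over the 9 libraries. The fibroblast markers (7 genes, with Dcn, Lum and Thy1 listed at 0) and the keratinocyte markers (6 genes, with Krt1, Krt10 and Trp63 listed at 0) summed to at most 0.567 and 0.055 FPKM in any library. The macrophage markers (6 genes, with Ptprc listed at 0) reached 3.19 FPKM in CTL, 4.32 in MS and 3.47 in Blebb, with only Cd68 and Lyz2 above 1 FPKM in any library.

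Among the enzymes, Tyr (chr7:87424771-87493512, minus strand) had the lowest FPKM. It was expressed at 76.0, 40.2 and 47.1 FPKM in CTL replicates 1 to 3, at 49.7, 41.6 and 80.5 FPKM in MS and at 49.6, 74.9 and 47.5 FPKM in Blebb. One library of each group was clearly higher than the other two, and the 3 groups overlapped. Its means in CTL, MS and Blebb were 54.5 ± 19.0, 57.3 ± 20.5 and 57.3 ± 15.2 FPKM (SD, n = 3). Dct (chr14:118012790-118052244, minus strand), the dopachrome tautomerase, was at 2678, 1624 and 1904 FPKM in CTL, 1700.0, 1675 and 2672 FPKM in MS and 1718, 2472 and 1698 FPKM in Blebb. The same 3 libraries as for Tyr were the highest. Its means were 2069 ± 546, 2016 ± 569 and 1963 ± 441 FPKM (SD, n = 3). The FPKM of Dct was between 33.0 and 40.4 times that of Tyr within every library. Tyrp1 (chr4:80834123-80851719, plus strand), whose product stabilizes tyrosinase, was flatter. It was at 2574, 1939 and 2078 FPKM in CTL, 2024, 1772 and 2622 FPKM in MS and 1903, 2078 and 2239.9 FPKM in Blebb. CTL replicate 1 and MS replicate 3 were again the highest, but Blebb replicate 2 was below Blebb replicate 3.

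Pmel (chr10:128704195-128720238, plus strand), which forms the fibrils, had the highest FPKM of the 10 genes and ranked between 5 and 22 among all gene names in the 9 libraries. It was expressed at 6318, 3185 and 3007 FPKM in CTL, at 2079, 2852 and 5106 FPKM in MS and at 3631, 5679 and 2585 FPKM in Blebb. The highest library of a group was 1.98 times the next in CTL, 1.79 times in MS and 1.56 times in Blebb, and the means were 4170.1 ± 1862, 3346 ± 1573 and 3965 ± 1574 FPKM (SD, n = 3). The annotated gene overlaps Cdk2 and Dgka on the opposite strand, and whether fragments were assigned by strand is not given in the sources used here. Cdk2 was itself highest in these libraries, at 239 FPKM in CTL replicate 1, 206 FPKM in MS replicate 3 and 266 FPKM in Blebb replicate 2, against 136 to 175 FPKM in the others. Dgka was also highest there, at 1.57, 1.56 and 1.65 FPKM in the same order, against 0.477 to 0.646 FPKM in the others. Whether fragments were assigned to the wrong gene was not tested.

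Mlana (chr19:29697824-29708634, plus strand), a small membrane protein that is needed for PMEL maturation and is known as a melanoma antigen, did not show this order. It was at 970.2, 1214 and 1376 FPKM in CTL, 1345, 1129 and 1209 FPKM in MS and 1383, 1072 and 1301 FPKM in Blebb, so that CTL replicate 1 and Blebb replicate 2 were the 2 lowest of the 9. Gpnmb (chr6:49036546-49070929, plus strand), a glycoprotein related to PMEL that is also found in lysosomes, was at 2182, 2546 and 2059 FPKM in CTL, 1955, 2675 and 1947 FPKM in MS and 2450.4, 2319 and 2331 FPKM in Blebb. It had the narrowest range of the 10 genes, with the highest library at 1.37 times the lowest, and MS replicate 3 was here the lowest of all. The ratio of Pmel to Mlana therefore ran from 1.55 in MS replicate 1 to 6.51 in CTL replicate 1. It was 5.30 in Blebb replicate 2 and 4.22 in MS replicate 3, and at most 2.63 in the other 6 libraries.

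**Figure D2:**
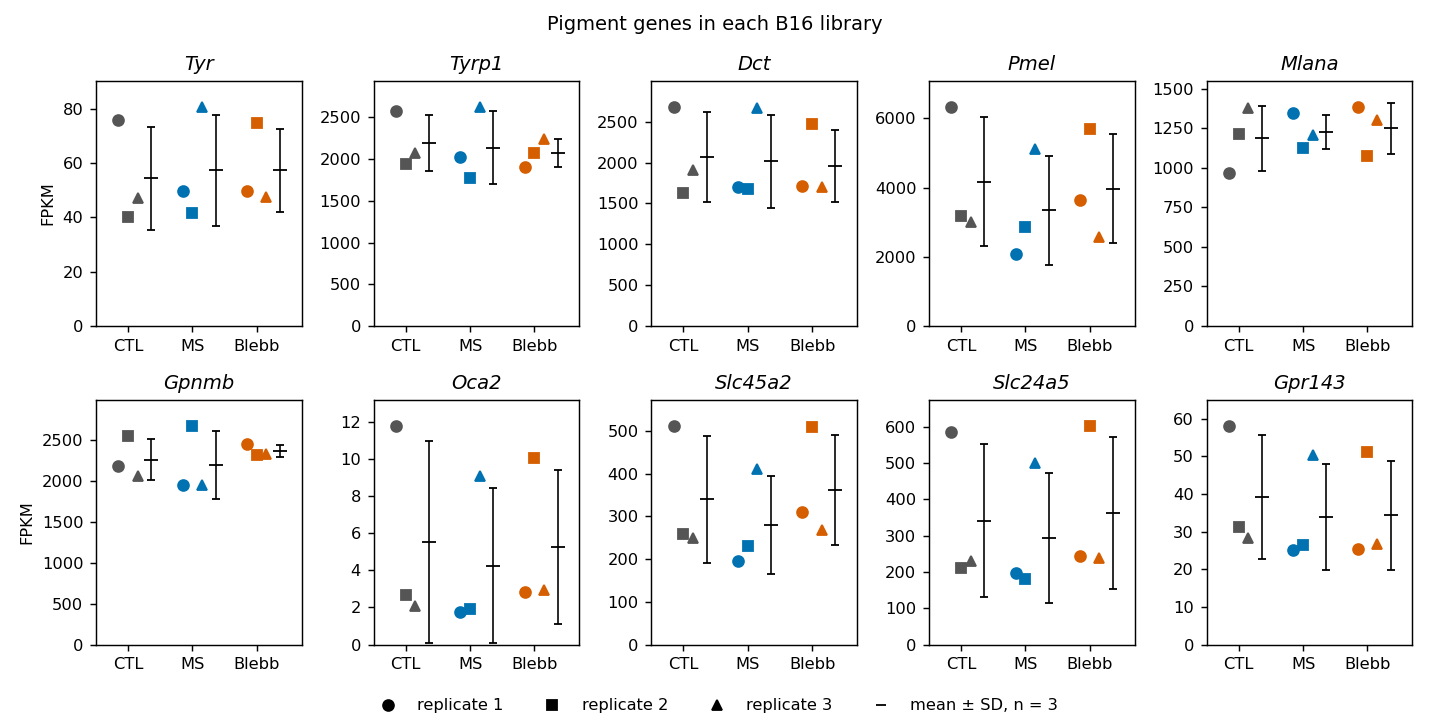
FPKM (vertical axes, linear from 0) of the 10 genes in the CTL, MS and Blebb libraries, with a marker shape for each replicate and the mean ± SD (n = 3) at the right of each group. CTL replicate 1, MS replicate 3 and Blebb replicate 2 are the 3 highest points in 7 panels, and the groups overlap in all 10.

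Oca2 and Slc24a5 varied most of the 10 genes. Oca2 (chr7:56239760-56536518, plus strand), which encodes an anion channel protein of the melanosome, was at 11.8, 2.69 and 2.08 FPKM in CTL, at 1.76, 1.94 and 9.06 FPKM in MS and at 2.81, 10.0 and 2.93 FPKM in Blebb. The values fell into a high library and a low pair in each group. The high library was 4.39 times the next in CTL, 4.67 times in MS and 3.42 times in Blebb. Slc24a5 (chr2:125068124-125088677, plus strand), a potassium-dependent sodium and calcium exchanger, was at 584, 211 and 229 FPKM in CTL, 196, 182 and 499 FPKM in MS and 245, 602 and 238 FPKM in Blebb. Its high library was 2.55, 2.54 and 2.46 times the next in the 3 groups. It overlaps Myef2 on the opposite strand, and Myef2 was at 1.90 FPKM in CTL replicate 1, 2.24 FPKM in Blebb replicate 2 and 5.96 FPKM in MS replicate 3, with 4.95 to 23.1 FPKM in the others. Slc45a2 (chr15:11000721-11029233, plus strand), a transporter thought to raise melanosomal pH, was at 512, 258 and 250.3 FPKM in CTL, 196, 231 and 410.0 FPKM in MS and 311, 508 and 268 FPKM in Blebb. The same 3 libraries were the highest.

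Gpr143 (chrX:152781921-152808646, plus strand) encodes a receptor of the melanosome membrane that limits organelle size. It was expressed at 58.1, 31.2 and 28.2 FPKM in CTL, at 25.2, 26.4 and 50.3 FPKM in MS and at 25.4, 51.1 and 26.7 FPKM in Blebb. The high library of each group was 1.87, 1.90 and 1.91 times the next, while the group means differed by less than 1 SD, at 39.2 ± 16.5, 33.9 ± 14.1 and 34.4 ± 14.5 FPKM (SD, n = 3).

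Altogether CTL replicate 1, MS replicate 3 and Blebb replicate 2 held the 3 highest values in 7 of the 10 genes, which were Tyr, Dct, Pmel, Oca2, Slc45a2, Slc24a5 and Gpr143. Among all 10109 genes tested the 3 libraries held the 3 highest values in 15.8% and the 3 lowest in 16.1%, and the latter applied to 0 of the 10 genes. Since the libraries were singled out after their values were known, these counts are a description with no test. The dependence of FPKM on GC content varied between libraries, and the transcripts of the 10 genes range in GC from 35.2% (Tyr) to 53.8% (Pmel). With the GC trend removed, Tyrp1 joined the 7 genes, which made 8 of 10 against 21.5% of all genes, while 0 of 10 were lowest there, against 19.8%. Oca2 then deviated from its mean by 1.47 in CTL replicate 1, 0.93 in MS replicate 3 and 1.27 in Blebb replicate 2 on the log2 scale, and Slc24a5 by 1.29, 0.66 and 1.37. Of the 10 stress response genes summed above, 7 had their 3 highest values in the same libraries, against 15.8% of all genes. Psat1, Phgdh and Atf3 did not. With the GC trend removed there were 6, against 21.5%. The part of the stress response in the pigment gene levels was not tested. In bulk RNA, a change in the number of cells that express a gene and a change in the RNA of each cell cannot be told apart.

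**Figure D3:**
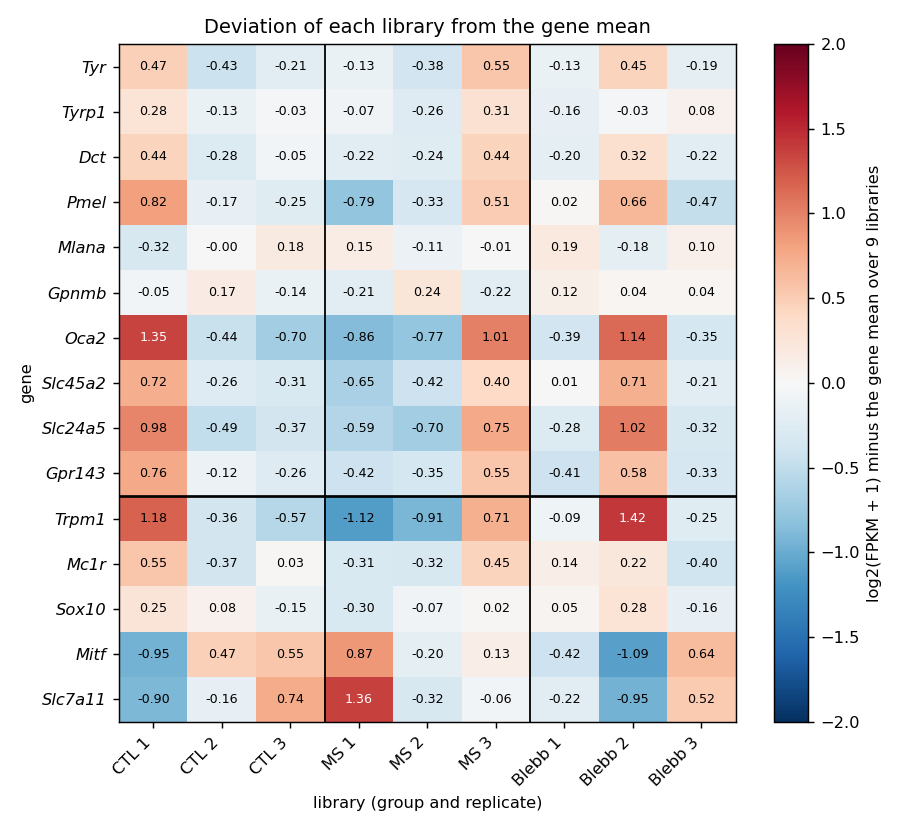
Deviation of log2(FPKM + 1) from the mean of the gene over 9 libraries (colour and printed value), with the 10 pigment genes above the line and 5 related genes below it, in the libraries ordered by group (columns). Oca2, Slc24a5 and Trpm1 reach the largest positive values in CTL 1, MS 3 and Blebb 2, and Mitf is lowest in CTL 1 and Blebb 2.

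In order of mean level over the 9 libraries, the genes were Pmel, Gpnmb, Tyrp1, Dct, Mlana, Slc24a5, Slc45a2, Tyr, Gpr143 and Oca2. FPKM is scaled by length, but the lengths used are not known and GC content differs between these transcripts. The order therefore describes the deposited values. Pmel exceeded Gpnmb in 9 of 9 libraries, by 1.06 to 2.90 times, although their ranges overlapped. Gpnmb exceeded Tyrp1 in 5 of 9 libraries and Tyrp1 exceeded Dct in 6 of 9, so that the order of these 3 genes was not settled. Dct was above Mlana, and Mlana above Slc24a5, with no overlap of the ranges. Slc24a5 exceeded Slc45a2 in 4 of 9 libraries. These were CTL replicate 1 (1.14 times), MS replicate 3 (1.22 times), Blebb replicate 2 (1.19 times) and MS replicate 1, where they were nearly equal. Slc45a2 lay above Tyr, and Gpr143 above Oca2, without overlap. The 10 genes together made up between 2.00% (MS replicate 1) and 3.30% (CTL replicate 1) of the summed FPKM of a library, with 3.12% in MS replicate 3 and 3.08% in Blebb replicate 2 and at most 2.48% in the other 6.

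**Figure D4:**
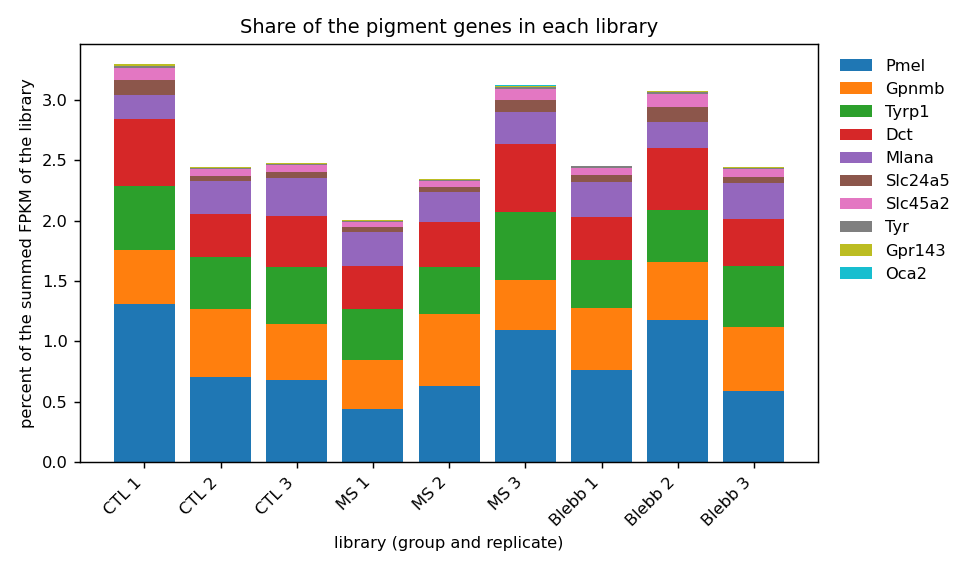
Percent of the summed FPKM of each library (vertical axis) contributed by the 10 genes, stacked by gene, for the 9 libraries (horizontal axis). CTL 1, MS 3 and Blebb 2 reach 3.30%, 3.12% and 3.08%, and Pmel alone makes up 1.31%, 1.09% and 1.18% there against 0.435% to 0.761% in the other 6.

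In MS against CTL, which asks for the effect of straining, 8 of the 10 genes had a log2 fold change below 0 and 2 above 0. Over all 10109 genes tested, 5101 were below 0. The median was -0.13, against -0.0018 over all genes tested. Since 7 of the 10 genes had their 3 highest values in the same libraries, their signs are not separate observations in any comparison. All fold changes are differences of log2(FPKM + 1), which makes changes of low genes such as Oca2 look smaller than they are. The lowest value was that of Pmel, at -0.33 with a standard error of 0.42 (95% interval -1.29 to 0.62), followed by Oca2 at -0.28 (standard error 0.69) and Slc45a2 at -0.28 (standard error 0.37). The highest were Tyr at 0.068 (95% interval -0.63 to 0.76) and Mlana at 0.060 (95% interval -0.32 to 0.44). The number of the 10 genes with an adjusted p under 0.05 was 0, as it was for 0% of all genes tested, and each adjusted p was 1.00 (limma, Benjamini-Hochberg adjustment across every gene tested). Without adjustment, 0 of the 10 genes had a p under 0.05, against 0.158% of all genes, and 0 genes were without overlap between the groups, against 3.17%. None of these differences exceeded the spread between replicates. With the GC trend removed, Tyr was at -0.25 and Dct, which was at -0.041, at -0.23. The lowest were then Slc24a5 at -0.354, Oca2 at -0.309 and Slc45a2 at -0.29, followed by Pmel at -0.265. The intervals leave room for changes of up to 1.28 (Oca2) in the positive and -1.83 (Oca2) in the negative direction. The values rested on single libraries. Pmel went from -0.69 without MS replicate 3 to 0.010 without CTL replicate 1, and Oca2 from -0.88 to 0.36 under the same omissions. Without the 3 libraries that stand apart, Pmel was at -0.35 (standard error 0.23), Slc45a2 at -0.26 (standard error 0.14), Slc24a5 at -0.22 (standard error 0.12) and Oca2 at -0.24 (standard error 0.18), and 0 genes passed an unadjusted p under 0.05, against 0.633% of all genes. Under quantile normalization Pmel was at -0.64 and reached an unadjusted p under 0.05, as 0.198% of all genes did, with an adjusted p above 0.05 (limma).

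Blebb against MS compares cells given the myosin inhibitor with strained cells, and shares the MS libraries with the comparison above. The log2 fold change was above 0 in 8 genes and below 0 in 2, while 4956 of all 10109 genes tested were above 0. The median was 0.076, against -0.0059 over all genes tested. It was highest for Slc45a2 at 0.40 (standard error 0.37, 95% interval -0.45 to 1.24), Oca2 at 0.34 (standard error 0.69), Slc24a5 at 0.32 (standard error 0.54) and Pmel at 0.27 (standard error 0.42). The enzymes were at 0.027 (Tyr), -0.026 (Dct) and -0.029 (Tyrp1) as deposited, but these values depended on the GC correction. With the GC trend removed they were at 0.47 (Tyr), 0.29 (Dct) and 0.16 (Tyrp1), and Tyr was then second to Slc24a5 at 0.57. Adjusted p values were between 0.897 and 0.994 (limma), so that 0 of the 10 genes passed, as did 0% of all genes. At an unadjusted p under 0.05 there were 0 of the 10 genes, against 1.25% of all genes, and 0 were without overlap, against 3.73%. Leaving out Blebb replicate 2 brought Slc45a2 to 0.12, Oca2 to -0.17, Slc24a5 to -0.12 and Pmel to -0.025, and leaving out MS replicate 3 brought them to 0.71, 0.945, 0.79 and 0.63. Without the 3 libraries that stand apart, the spread was smaller and 3 of the 10 genes passed an unadjusted p under 0.05, against 1.1% of all genes. They were Slc45a2 at 0.44 (standard error 0.14), Slc24a5 at 0.35 (standard error 0.12) and Oca2 at 0.44 (standard error 0.18). Each of them had an adjusted p of 0.998 (limma), and with 2 libraries a group the result did not pass the threshold. The libraries left out were chosen after the data were seen and held the 3 highest values of each of these genes. Leaving them out thus lowered the spread of these genes by construction, and the count is a description.

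Blebb against CTL shares its libraries with both comparisons above. The log2 fold changes of the 10 genes were between -0.18 (Gpr143, standard error 0.38) and 0.12 (Slc45a2, standard error 0.37). They were above 0 in 6 genes and below 0 in 4, while 4648 of all 10109 genes tested were above 0. The median was 0.066, against -0.013 over all genes tested. Gpnmb and Mlana had the narrowest 95% intervals, at -0.30 to 0.44 and -0.30 to 0.47, and Oca2 the widest, at -1.50 to 1.62. The adjusted p was 1.00 for each gene (limma), and 0 of 10 genes passed either the adjusted threshold (0% of all genes) or an unadjusted p under 0.05 (0.089% of all genes). The number without overlap was 0, against 2.08%. Pmel moved from -0.36 without Blebb replicate 2 to 0.28 without CTL replicate 1. Without the 3 libraries together, the values lay between -0.18 (Gpr143) and 0.20 (Oca2), and 0 of the 10 genes passed an unadjusted p under 0.05, against 0.386% of all genes.

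**Figure D5:**
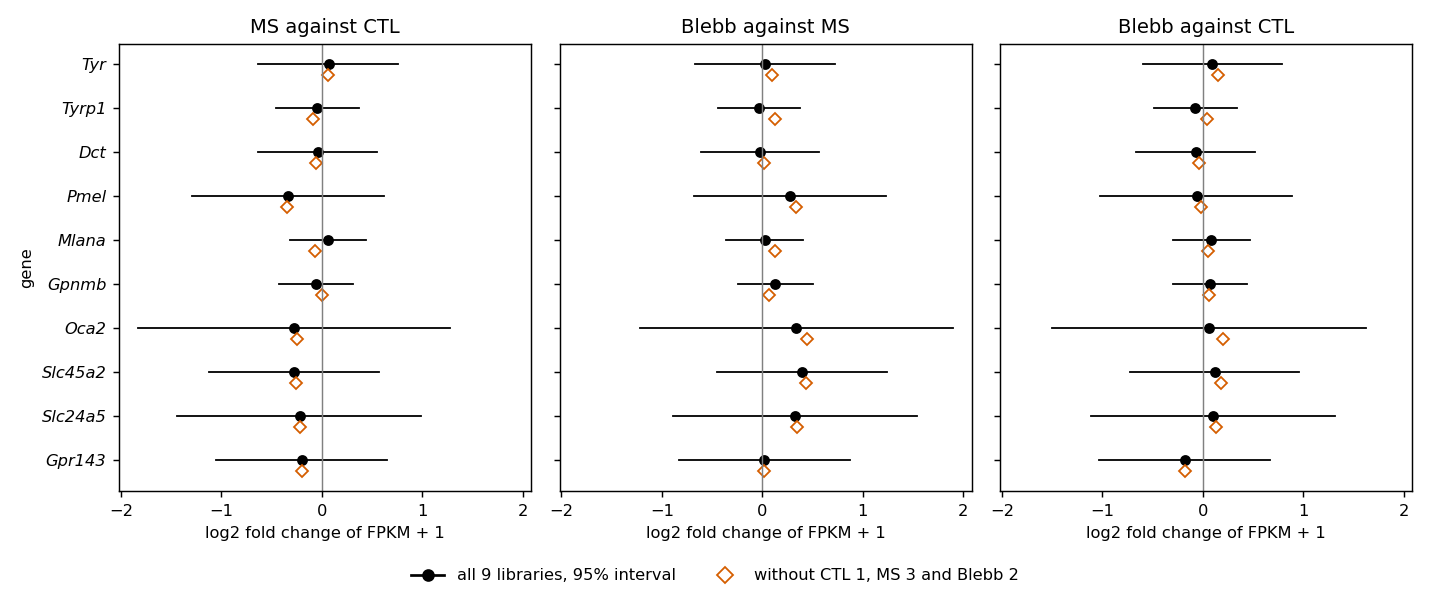
Log2 fold change of FPKM + 1 (horizontal axes) of the 10 genes in the 3 comparisons, as filled points with 95% intervals from the limma fit on 9 libraries and as open diamonds without CTL 1, MS 3 and Blebb 2. All 30 intervals include 0, and those of Oca2 are the widest.

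The treatment groups accounted for little of the variation of these genes. The share of the variance of log2(FPKM + 1) that lay between the groups was from 0.883% (Dct) to 12.3% (Slc45a2). Its median was 4.02%, whereas the median of all genes tested was 12.7%. For 3 groups of 3 that do not differ, 25% is expected. That value is an average and not a median, and single genes vary around it. The SD over the 9 libraries was 0.896 on the log2 scale in Oca2, above 98.8% of all genes tested. It was 0.703 in Slc24a5 (96.6%), 0.549 in Pmel (91.4%), 0.501 in Slc45a2 (88.8%) and 0.483 in Gpr143 (87.6%). Gpnmb at 0.164, Mlana at 0.176 and Tyrp1 at 0.191 were below the median of all genes of 0.231.

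Mitf, the factor that activates many pigment genes, did not follow them. It was expressed at 9.50, 27.2 and 28.8 FPKM in CTL, at 36.2, 16.7 and 21.2 FPKM in MS and at 14.2, 8.51 and 30.7 FPKM in Blebb. The 2 lowest libraries, Blebb replicate 2 and CTL replicate 1, were among the 3 highest for 7 of the pigment genes. The Mitf transcript has 43.4% GC, and both libraries were still the lowest after the GC correction, at -0.73 and -0.62 on the log2 scale. The limma estimates for Mitf were 0.24 for MS against CTL, with an adjusted p of 1.00, and -0.56 for Blebb against MS, with an adjusted p of 0.897, each with a standard error of 0.52 on the log2 scale. Sox10, which drives Mitf, was at 209.8 to 313 FPKM in all libraries, highest in Blebb replicate 2 and CTL replicate 1. Mc1r, the melanocortin receptor upstream of Mitf, was at 53.9, 50.2 and 42.6 FPKM in CTL replicate 1, MS replicate 3 and Blebb replicate 2 and at 27.5 to 40.5 FPKM in the other 6.

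Of the 12 genes listed as melanocyte regulators, 9 were tested, and Kit, Ednrb and Lef1 were below the minimum. Their log2 fold changes ran from -0.23 (Tfeb) to 0.25 (Creb1) in MS against CTL, from -0.56 (Mitf) to 0.29 (Tfeb) in Blebb against MS and from -0.32 (Mitf) to 0.059 (Tfeb) in Blebb against CTL. All 34 genes listed for melanosome biogenesis and transport were tested. The extremes were Slc7a11 (0.44), the cystine transporter, and Trpm1 (-0.52), a cation channel gene under MITF control, in MS against CTL. They were Trpm1 (0.80) and Myo5a (-0.63), the myosin that carries melanosomes, in Blebb against MS, and Trpm1 (0.28) and Myo5a (-0.48) in Blebb against CTL. In both lists the number of genes past an adjusted p under 0.05 was 0 in either direction, and at an unadjusted p under 0.05 it was also 0 in each comparison with all 9 libraries (limma). Without the 3 libraries that stand apart, 0 of the 9 regulators passed the unadjusted threshold. Of the 34 melanosome genes 1 passed in MS against CTL, 1 in Blebb against MS and 0 in Blebb against CTL. The shares of all genes tested were 0.633%, 1.1% and 0.386%. The gene was Trpm1 both times, and its 3 highest values were in the libraries left out, which were chosen after the data were seen. By limma it was then at -0.55 for MS against CTL, with an adjusted p of 1.00, and at 0.84 for Blebb against MS, with an adjusted p of 0.998, each with a standard error of 0.14. Trpm1 had the order of the pigment genes, at 401, 138 and 119 FPKM in CTL, 80.6, 93.7 and 289 FPKM in MS and 166, 476 and 148 FPKM in Blebb. The 3 libraries that stand apart were the highest in 13 of the 34 genes, among them Rab38, Bace2 and Mcoln1, against 15.8% of all genes tested. They were the lowest in 3 (Mlph, Mreg and Bloc1s2), against 16.1%. Slc7a11 was low in CTL replicate 1 and Blebb replicate 2, at 1.69 and 1.60 FPKM, and highest in MS replicate 1 at 11.9 FPKM.

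The gene whose pattern was most like that of each pigment gene was searched among 7004 genes averaging 5 FPKM or more. Likeness was the root mean square difference of the centred log2(FPKM + 1) values over the 9 libraries, leaving out candidates whose SD was under 0.5 times that of the pigment gene. Tyr was nearest to Ift52 (0.065), Tyrp1 to Kcmf1 (0.046), Dct to Fkbp15 (0.041) and Pmel to Fam53b (0.078). Mlana was nearest to Prep (0.043) and Gpnmb to Pex10 (0.057). Oca2 was nearest to Hpse (0.16), Slc45a2 to Slc1a5 (0.094), Slc24a5 to Slc1a4 (0.15) and Gpr143 to Aph1c (0.069). Among the pigment genes themselves the closest pairs were Tyr with Dct (0.11) and Pmel with Slc45a2 (0.12), and Oca2 with Slc24a5 was at 0.22. Mlana and Gpnmb had each other as the nearest pigment gene, at 0.25, which ranked 3196 and 2996 among the candidate genes. All these points share the 9 libraries and the differences between them, so likeness here is a description.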

How the data were processed

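RNA of B16 cells was extracted with TRIzol, made into libraries with the SMARTER mRNA-Seq kit and sequenced on an Illumina platform. The authors deposited an FPKM value per gene for each of the 9 libraries, and the heading of CTL replicate 1 names the library in place of the unit. The submitters' processing notes name the build GRCm38 (mm10). The aligner, the counting program and the annotation are not given in the sources used here. Gene positions and GC contents (95.6% of the genes tested) were taken from GENCODE M21 on GRCm38 and promoters from RefSeq. Depth is unknown, so no counting intervals are given.

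The sample labels gave the groups and the replicate numbers. Genes averaging 1 FPKM or more (10109) were tested as log2(FPKM + 1) in limma 3.58.1 under R 4.3.3, with 3 group means, a mean-variance trend, two-sided tests and Benjamini-Hochberg adjustment at 0.05. In simulated data for MS against CTL, the fit recovered 50.5% of 200 genes given a log2 change of 1, with 3 unchanged genes called. It recovered 85.0% of 200 given a change of 2, with 8 unchanged genes called. It made 0 calls when no gene was changed. Each gene was simulated independently with its own SD, so differences that libraries share across genes were left out. The changed genes were picked at random, so these shares do not apply to genes of wide spread such as Oca2. The exact test planned for genes under 1 FPKM was not needed. The genes, the lists of related genes and the alternatives were chosen with earlier results of these data known. The genes named from the lists are Mitf, Sox10, Mc1r, Slc7a11, the highest and lowest regulator and melanosome gene of each comparison and any with an unadjusted p under 0.05, and the nearest gene in pattern. Examples of other list genes were chosen after their values were seen. The summed lineage markers and the lysosomal list are not reported here.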

Additional observations from a re-analysis of the deposited data

How the results depend on the processing

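In the 3 comparisons with all libraries 0 genes passed the adjusted threshold of 0.05 (limma). The count was also 0 with a pseudocount of 0.1, with all genes or only those averaging 5 FPKM, with median-of-ratios factors or quantile normalization, without the trend, with the third group left out of the fit, with the replicate block, with the GC trend removed and, an alternative chosen after seeing the data, without CTL replicate 1, MS replicate 3 and Blebb replicate 2. With single libraries omitted, 0 to 1 genes passed in MS against CTL and in Blebb against MS, the 1 being Gm49527 without MS replicate 2, and 0 in Blebb against CTL. Of the pigment genes 0 passed throughout. The replicate block changed no call. The deviations of same-numbered libraries correlated between -0.785 and 0.835, and those of CTL replicate 1 and Blebb replicate 2 at 0.923. These correlations follow the libraries that stand apart. They cannot show whether same-numbered libraries were handled together, which the labels do not say.

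The sign of log2 fold changes near 0 depended on the libraries. With single libraries left out, MS against CTL went for Tyr from -0.202 to 0.331, Tyrp1 from -0.203 to 0.079, Dct from -0.262 to 0.161, Pmel from -0.689 to 0.010, Mlana from -0.078 to 0.174, Gpnmb from -0.208 to 0.032, Oca2 from -0.884 to 0.364, Slc45a2 from -0.591 to 0.059, Slc24a5 from -0.686 to 0.248 and Gpr143 from -0.511 to 0.117. Blebb against MS went for Tyr from -0.178 to 0.297, Tyrp1 from -0.155 to 0.127, Dct from -0.203 to 0.195, Pmel from -0.025 to 0.628, Mlana from -0.052 to 0.132, Oca2 from -0.165 to 0.945, Slc24a5 from -0.115 to 0.789 and Gpr143 from -0.298 to 0.330. Blebb against CTL went for Tyr from -0.110 to 0.358, Tyrp1 from -0.161 to 0.044, Dct from -0.244 to 0.136, Pmel from -0.358 to 0.282, Mlana from -0.054 to 0.198, Oca2 from -0.442 to 0.702, Slc45a2 from -0.154 to 0.454, Slc24a5 from -0.336 to 0.572 and Gpr143 from -0.497 to 0.134. Removing the GC trend turned Tyr to -0.251 and Mlana to -0.004 in MS against CTL, Tyrp1 to 0.158 and Dct to 0.289 in Blebb against MS, and Tyrp1 to 0.022 and Dct to 0.055 in Blebb against CTL. In Blebb against MS, quantile normalization turned Tyr to -0.029, Mlana to -0.017 and Gpr143 to -0.010, and median-of-ratios factors turned Tyrp1 to 0.005 and Dct to 0.008. Without the 3 libraries, Mlana was at -0.068 in MS against CTL, Tyrp1 at 0.124 and Dct at 0.018 in Blebb against MS, and Tyrp1 at 0.040 in Blebb against CTL. The cause of these changes was not tested. The depth is unknown, and the spread between libraries limits what could be detected.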
